A study of Mus musculus with 7 samples.

Results

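The 39 protein-coding Hox genes of the mouse were described here, chosen by symbol (Hoxa, Hoxb, Hoxc or Hoxd followed by a number) from 21887 protein-coding gene symbols. All 39 were found, with 11 genes in the Hoxa cluster, 10 in Hoxb, 9 in Hoxc and 9 in Hoxd. Peaks were taken from the 4 clusters, each running from its first to its last gene, with 10 kb on each side. These windows held 5 of 17709 Oct1 peaks of embryonic stem cells (ESCs), 9 of 22817 Oct4 peaks of ESCs, 7 of 4867 Oct1 peaks of day 3 and 15 of 7758 Oct1 peaks of day 6.

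The study mapped binding of the POU-domain factors Oct1 and Oct4 by chromatin immunoprecipitation and sequencing (ChIP-seq) in ESCs and in ESCs directed towards mesoderm. The genotype of all groups used here is given as parental, with no further allele named, and each group is 1 library. Undifferentiated ESCs gave an Oct1 and an Oct4 library. Differentiating cells received Bmp4 in N2B27 medium for 2 days, followed by Rspo3 and LDN-193189, a BMP receptor inhibitor, in DMEM-based medium for up to 4 days, and gave an Oct1 library at day 3 and another at day 6. Expression of marker genes was not measured in these files, so the labelled cell states were not checked. With 1 library per group no test between groups was possible, and the lists do not give the depth reached by each library (the labels name 100 M read pairs of 50 bp reads for all samples alike), so a gene without a listed peak is not shown to be unbound.

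Hox genes encode homeodomain transcription factors that give cells their position along the head-to-tail axis. They lie in 4 clusters, numbered by paralogue group, and all genes of a cluster are transcribed in the same direction, from the group 13 side towards group 1. In ESCs the clusters are held silent by Polycomb, and during gastrulation and mesoderm formation they are switched on in order, the low-numbered (anterior) genes first and the high-numbered (posterior) genes last. The end of each gene that faces group 13 is therefore called its outer end below and marks the start of its longest annotated form. The strand of all 24 Hox promoter windows in the RefSeq table matched this direction.

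RefSeq promoter windows (GRCm38.p6, 250 bases before to 50 after a start site) were at hand for 22 of the 39 genes. They covered the clusters unevenly, with 9 of 11 Hoxa genes, 3 of 10 Hoxb, 1 of 9 Hoxc and 9 of 9 Hoxd. Only 5 of these genes had a peak of any list on a window, and their windows are shown because they are the Hox sequences that the peaks can be placed on. Each reads 5′ to 3′ along the gene, and capitals mark a stretch that matches the octamer ATGCAAAT, the classical binding site of Oct1, at 7 of its 8 letters on either strand.

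Hoxa13 (chr6:52260831-52261130, minus strand): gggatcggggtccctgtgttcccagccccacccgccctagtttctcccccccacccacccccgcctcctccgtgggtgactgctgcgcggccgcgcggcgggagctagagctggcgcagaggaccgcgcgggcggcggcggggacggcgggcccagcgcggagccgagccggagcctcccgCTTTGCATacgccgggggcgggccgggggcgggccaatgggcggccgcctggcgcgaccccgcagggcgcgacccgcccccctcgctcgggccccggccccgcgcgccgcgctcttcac
Hoxb4 (chr11:96318017-96318316, plus strand): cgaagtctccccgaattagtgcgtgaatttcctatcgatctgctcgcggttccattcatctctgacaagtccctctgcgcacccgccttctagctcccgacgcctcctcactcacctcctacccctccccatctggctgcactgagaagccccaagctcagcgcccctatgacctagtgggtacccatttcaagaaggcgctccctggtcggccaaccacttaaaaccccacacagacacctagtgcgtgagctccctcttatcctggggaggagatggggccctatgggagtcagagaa
Hoxd10 (chr2:74691641-74691940, plus strand): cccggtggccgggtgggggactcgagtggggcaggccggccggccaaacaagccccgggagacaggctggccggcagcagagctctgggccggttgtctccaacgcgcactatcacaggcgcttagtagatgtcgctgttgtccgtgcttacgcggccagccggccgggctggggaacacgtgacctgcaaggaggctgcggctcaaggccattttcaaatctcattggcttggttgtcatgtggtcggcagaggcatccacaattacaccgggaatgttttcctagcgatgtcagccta
Hoxd11 (chr2:74682073-74682372, plus strand): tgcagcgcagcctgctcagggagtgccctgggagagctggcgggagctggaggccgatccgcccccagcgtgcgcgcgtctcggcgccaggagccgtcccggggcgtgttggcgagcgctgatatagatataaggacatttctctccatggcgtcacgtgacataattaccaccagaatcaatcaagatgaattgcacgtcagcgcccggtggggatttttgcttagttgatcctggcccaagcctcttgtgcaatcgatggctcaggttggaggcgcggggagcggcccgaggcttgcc
Hoxd13 (chr2:74667975-74668274, plus strand): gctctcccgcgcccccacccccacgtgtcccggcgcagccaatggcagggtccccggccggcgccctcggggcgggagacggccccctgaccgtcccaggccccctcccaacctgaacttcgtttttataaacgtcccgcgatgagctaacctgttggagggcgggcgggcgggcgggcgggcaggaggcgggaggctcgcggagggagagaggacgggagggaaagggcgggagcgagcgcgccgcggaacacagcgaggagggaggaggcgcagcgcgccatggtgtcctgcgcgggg

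The Hoxa13 window lay wholly under an Oct1 peak at day 3 and at day 6 (300 bases each), and holds 1 such stretch, CTTTGCAT, which begins 69 bases before the start site. The Hoxd13 window lay wholly under a day 6 peak, and 290 bases of the Hoxd10 window did. The Hoxb4 window was covered over 226 bases in the ESC Oct1 list and over 300 bases at day 3, and the second Hoxd11 window over 238 bases at day 3. No other Hox window carried a peak. Counted by list, 1 of 24 Hox windows had an ESC Oct1 peak against 4.77% of all 32851 windows, and none an ESC Oct4 peak against 3.70%. Day 3 peaks lay on 3 Hox windows against 9.78%, and day 6 peaks on 3 against 21.4%. Hoxb7, Hoxc6 and Hoxc13, with later Oct1 peaks at or near their outer ends, have no window. These counts therefore do not stand for all Hox promoters.

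The 24 Hox windows were too few, and most of these motifs too rare, to tell whether Hox windows differ from others in motif content. The octamer ATGCAAAT was in none of the 24 Hox windows and in 1.74% of all windows, counting both strands. Its looser form ATGCNAAT, which includes the octamer, was found in the Hoxb1 window alone (3.15% of all windows), as ATGCTAAT 180 bases before the start site. The palindromic Smad element GTCTAGAC (0.213% of all windows) and the dimeric Oct1 site known as MORE (0.00913%) were in no Hox window. A stretch with at least 7 of the 8 octamer letters was in 4 Hox windows (16.7%; Hoxa13, Hoxb1, Hoxd4 and Hoxd8), beside 18.6% of all windows.

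Oct1 peaks were listed at few Hox genes in ESCs and at more of them in differentiating cells. Counting peaks in the gene itself, Oct1 was listed at 3 Hox genes in ESCs (7.69% of 39), 9 at day 3 (23.1%) and 14 at day 6 (35.9%), and Oct4 at 6 in ESCs (15.4%). The shares of all protein-coding genes, counted the same way, were 23.9%, 17.7%, 33.6% and 28.0%. The day 3 and day 6 shares of Hox genes were therefore close to those of all genes, and both ESC shares were lower. Among genes within the length range of the Hox genes (1784 to 44009 bp) the shares were 20.4%, 16.7%, 34.5% and 25.1%.

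When peaks within 10 kb of a gene were counted too, more Hox genes were reached, mostly by peaks that lie inside a neighbouring Hox gene. In ESCs this held for 5 Hox genes with Oct1 (12.8%, exact Clopper-Pearson 95% interval 4.30 to 27.4), beside 35.2% of all protein-coding genes. At day 3 it held for 17 (43.6%, 27.8 to 60.4, beside 24.6%), and at day 6 for 28 (71.8%, 55.1 to 85.0, beside 41.5%). ESC Oct4 peaks were listed near 15 Hox genes (38.5%, 23.4 to 55.4), close to the 40.2% of all genes. Neighbouring Hox genes lie close enough to share peaks, so these intervals, which cover counting error only, are too narrow. These counts rest on 3 ESC Oct1, 9 Oct4, 7 day 3 and 15 day 6 cluster peaks.

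These shares depended on the width of the window. Within 1 kb of a start site (or of either gene end where no start was at hand), 1 Hox gene had an ESC Oct1 peak (2.56%, beside 7.80% of all genes) and 1 an ESC Oct4 peak (2.56%, beside 7.39%). At day 3 it was 7 (17.9%, beside 14.7%) and at day 6 it was 10 (25.6%, beside 31.2%). A start site need not be the outer end of a gene. The ESC Oct4 peaks at Hoxb8 lay 90 and 781 bp from its outer end but 1895 and 3285 bp from its start site, and are not counted here. With 50 kb on each side the Hox shares were 38.5%, 74.4%, 94.9% and 97.4% in the ESC Oct1, ESC Oct4, day 3 and day 6 lists, beside 58.7%, 62.5%, 41.5% and 57.9% of all genes. The Hox shares at day 3 and day 6 thus stood above those of all genes by a wide margin only where distant peaks were counted, and in the ESC Oct1 list they were below them with each of these windows.

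The day 6 counts rested on peaks with low scores. The score is the authors' own whole number per peak and has no stated unit, so each peak is placed by its percentile, the share of its own list with a lower score. Of the 15 day 6 peaks, 12 lay below the middle of their list, and the median percentile was 25.8. When peaks in the lower-scoring part of each list were dropped to leave 50% of it (ties kept), 4 Hox genes kept a day 6 peak within 10 kb (10.3%, 2.87 to 24.2, beside 25.0% of all genes), while 14 kept a day 3 peak (35.9%, 21.2 to 52.8, beside 15.0%). The ESC counts were 5 for Oct1 (12.8%, beside 24.3%) and 9 for Oct4 (23.1%, beside 26.8%). With every list shortened to its 4867 highest scores, 5 Hox genes had an ESC Oct1 peak (12.8%, beside 16.3%), 2 an Oct4 peak (5.13%, beside 14.7%) and 5 a day 6 peak (12.8%, beside 30.2%). The day 3 peaks had a median percentile of 67.5, with 6 of 7 at or above the middle of their list, and the ESC Oct1 peaks one of 64.7. The Oct4 peaks had a median of 43.2.

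**Figure D1:**
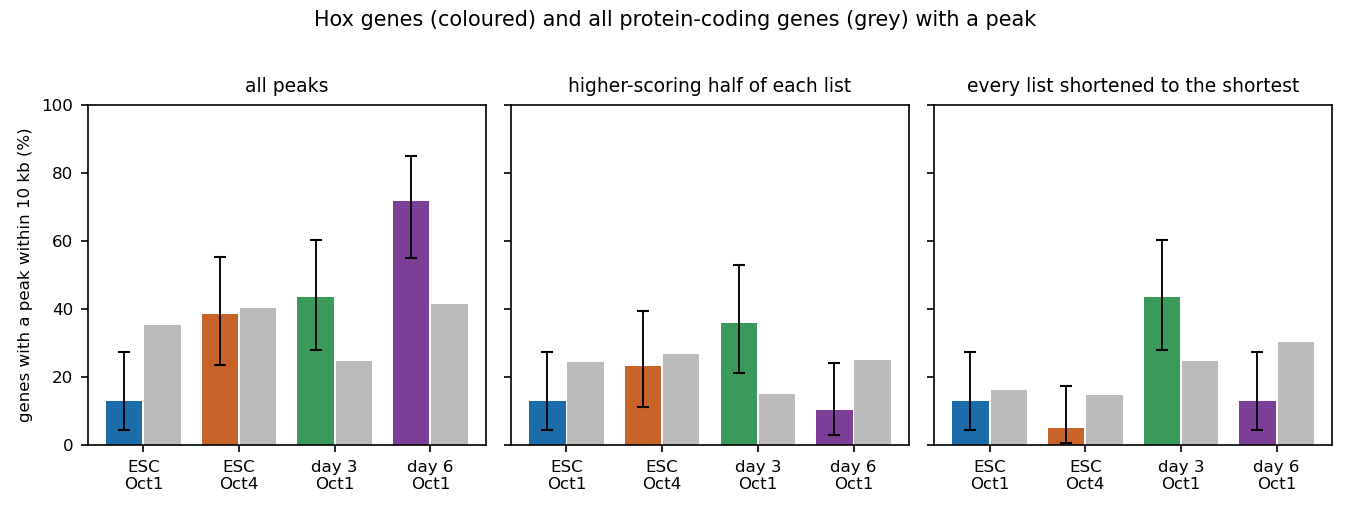
Percent of the 39 Hox genes (coloured bars, with exact 95% intervals) and of all protein-coding genes (grey bars) with a peak in the gene or within 10 kb, in each peak list. The left panel uses all peaks, the middle panel the higher-scoring 50% of each list, and the right panel every list shortened to its 4867 highest scores. The day 6 bar falls from 71.8% to 10.3% and 12.8%, while the day 3 bar is above the grey bar in the left and middle panels. The right panel leaves the day 3 list, the shortest, as it was.

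The clusters are packed with genes, at 69.9 protein-coding genes per Mb in the windows (0.572 Mb in all) against 8.10 per Mb over the annotated genome. Oct1 peaks at day 6 came to 26.2 per Mb in the windows (exact Poisson interval 14.7 to 43.2, counting only) and 2.87 per Mb over the genome. At day 3 the densities were 12.2 (4.92 to 25.2) and 1.80 per Mb, and for ESC Oct1 8.74 (2.84 to 20.4) and 6.55 per Mb. For ESC Oct4 they were 15.7 (7.19 to 29.9) and 8.44 per Mb. Set against genes instead of length, the picture differed. There were 37.5 day 6 peaks per 100 protein-coding genes in the windows and 35.4 in the whole list, 17.5 against 22.2 at day 3, 12.5 against 80.9 for ESC Oct1 and 22.5 against 104 for ESC Oct4.

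**Figure D2:**
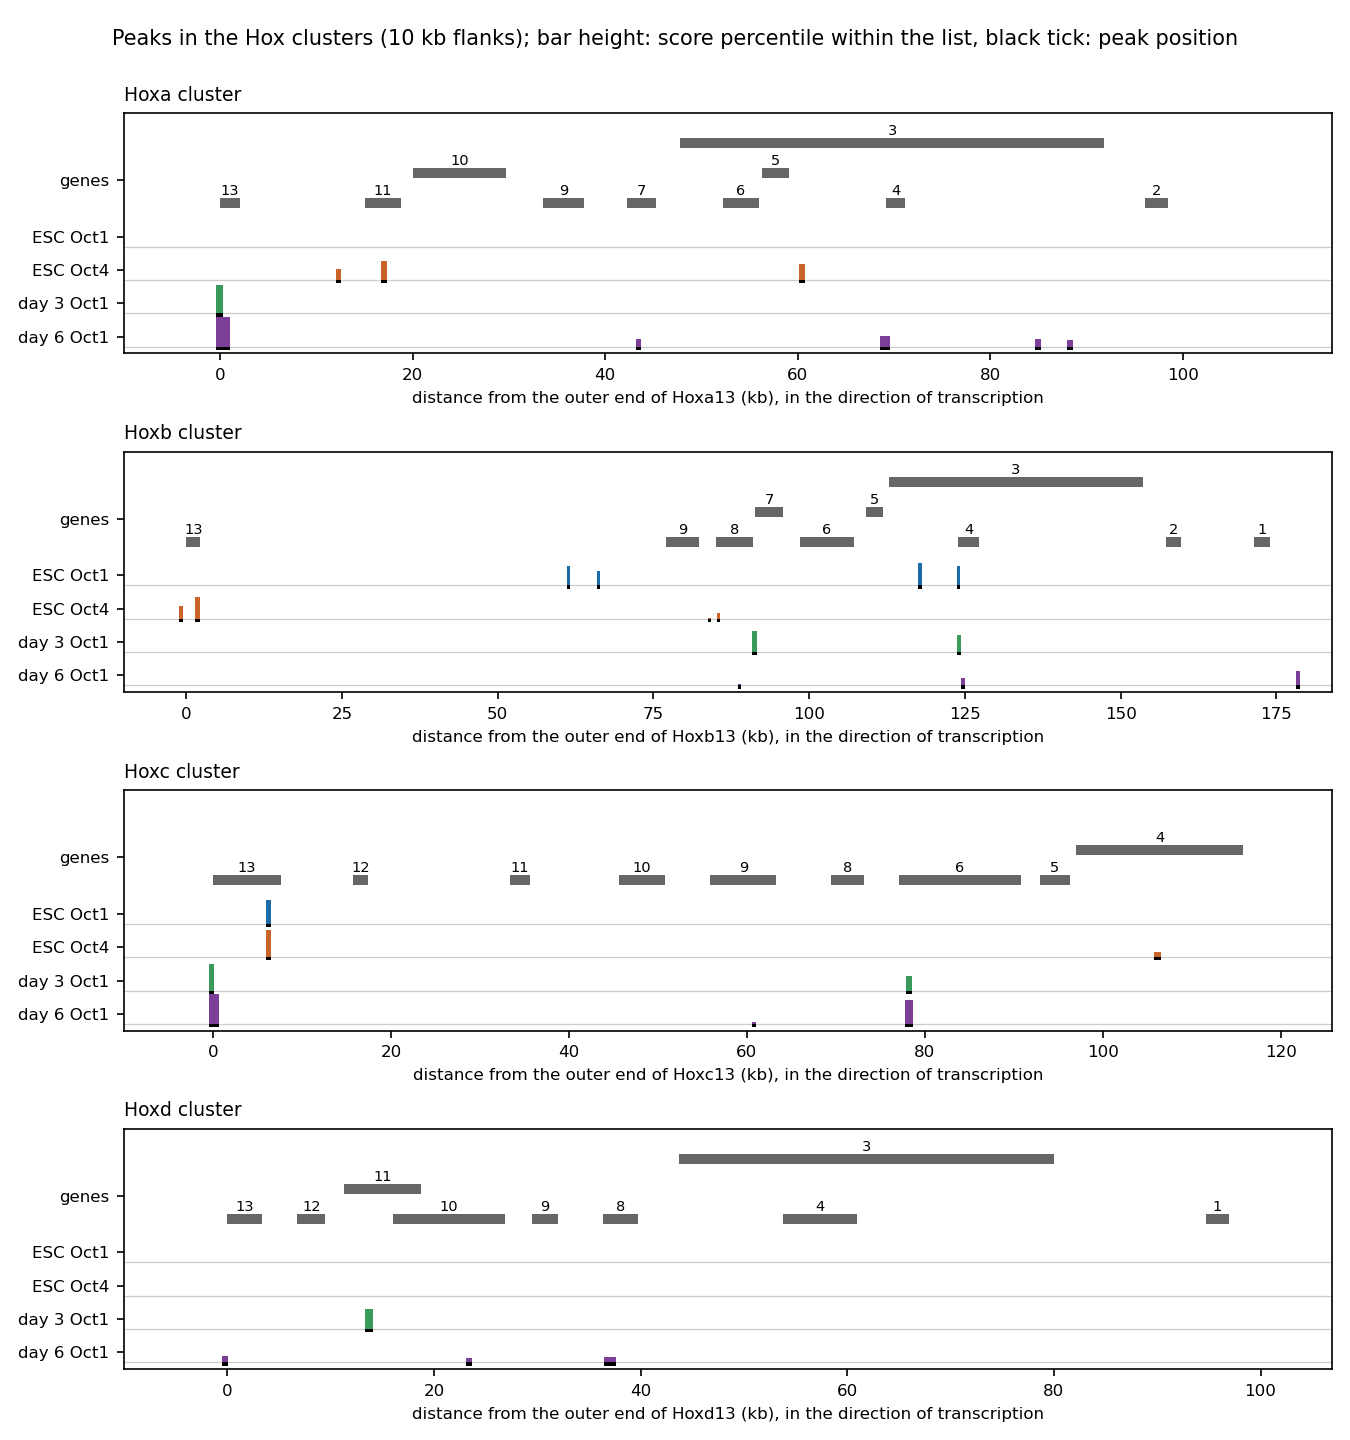
Maps of the 4 clusters with 10 kb flanks. The x axis gives the distance in kb from the outer end of the group 13 gene, grey boxes are Hox genes, labelled by paralogue group, and in each list's row a bar stands for a plotted peak, drawn to its width, with a height that gives its score percentile (0 to 100 over the row). The 2 tallest day 6 bars stand at the outer ends of Hoxa13 and Hoxc13, and no ESC peak of either factor lies in the Hoxd window.

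The posterior paralogue group 13 held the highest-scoring Oct1 peaks of the clusters in differentiating cells. These genes, expressed last and nearest the tail, pattern the limb ends, hindgut and urogenital tract, and Hoxc13 also acts in hair and nails. At Hoxa13 (gene ID 15398, chr6:52258853-52260880), the day 3 peak at chr6:52260601-52261360 had a score of 872, rank 277 of 4867. The day 6 peak at chr6:52259871-52261360 had a score of 2848 and rank 110 of 7758. Both covered the outer end of the gene, and the day 6 peak was 1490 bp wide, 2.33 times the median width of its list. Neither ESC list had a peak on the Hoxa13 gene, although an Oct4 peak in the antisense gene Hoxa11os fell within 10 kb.

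Hoxc13 (gene ID 15422, chr15:102921131-102928814) was the only Hox gene with a peak in all 4 lists, but at different places. In ESCs, Oct1 (chr15:102927051-102927680, score 207, rank 3474) and Oct4 (chr15:102927071-102927660, score 278, rank 2121) had coinciding peaks inside the gene, 5920 and 5940 bp from its outer end. In differentiating cells the Oct1 peaks covered the outer end itself, at day 3 with score 606 and rank 503 (chr15:102920661-102921250) and at day 6 with score 2604 and rank 137 (chr15:102920651-102921820). The ESC site had no peak at either later time, and the outer end had none in ESCs. The percentiles of the outer-end peak were 89.6 at day 3 and 98.2 at day 6.

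The other members of group 13 had weaker peaks or none at the later times. At Hoxd13 (gene ID 15433, chr2:74668225-74671603), a day 6 Oct1 peak covered the outer end at chr2:74667681-74668330 with a score of 220, at percentile 21.8. Hoxb13 (gene ID 15408), which stands apart from the rest of its cluster, had Oct4 peaks in ESCs at percentiles 43.2 (516 bp outside the outer end) and 71.1 (inside the gene), and no Oct1 peak in any list. Counting peaks in the gene itself, day 6 peaks were thus listed in 3 of the 4 genes of group 13, day 3 peaks in 2, ESC Oct4 peaks in 2 and ESC Oct1 peaks in 1, beside 33.6%, 17.7%, 28.0% and 23.9% of all genes. With 4 genes in the group, such counts do not set it apart.

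Hoxa11, Hoxa10, Hoxd10, Hoxd11 and Hoxd12, which pattern the limb and lumbar to sacral levels, differed between clusters. Hoxa11 (gene ID 15396) and the adjoining Hoxa11os carried Oct4 peaks in ESCs with scores 169 and 118, the first also inside the uncharacterised LOC115490410, and these were also the peaks near Hoxa10, and neither gene had an Oct1 peak in any list. Hoxd11 (gene ID 15431) had a day 3 Oct1 peak at chr2:74681601-74682310 with a score of 289 (percentile 67.5), which also lay within 10 kb of Hoxd10, Hoxd12 and Hoxd13. At day 6 this peak was not listed. The nearest day 6 peak, 9061 bp away at chr2:74691371-74691930, lay in Hoxd10 (gene ID 15430) with a score of 169 (percentile 16.2), and reached Hoxd11 as well. The Hoxd13 peak was the one near Hoxd12 at day 6. Hoxc12 was within 10 kb of the ESC peaks in Hoxc13 and had no later peak, and Hoxc11 had none in any list.

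Among the central genes, which specify trunk levels, Hoxc6 had the highest day 6 score. Hoxc6 (gene ID 15425, chr15:102998226-103011882) carried a day 3 peak at chr15:102998961-102999710 with a score of 195 and a day 6 peak at chr15:102998881-102999760 with a score of 1058 (rank 1497). The day 3 peak began 735 bp and the day 6 peak 655 bp inside the outer end, and both counted for Hoxc8 too. Hoxc9 (gene ID 15427), known for setting thoracic motor neuron identity, had a day 6 peak with a score of 91 (percentile 6.26) inside the gene, which was also the peak near Hoxc10. Hoxa7 (gene ID 15404) had a day 6 peak with a score of 261 (percentile 25.8), 903 bp from its start site, and this peak served Hoxa6 and Hoxa9 as well.

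In the Hoxb cluster, a day 3 peak at chr11:96285221-96285940 bridged the end of Hoxb8 and the outer end of Hoxb7, with a score of 312 (percentile 70.4). It was not listed at day 6, when a peak 1761 bp away lay inside Hoxb8 with a score of 77 (percentile 3.75). Both peaks also lay within 10 kb of Hoxb6 and Hoxb9. In ESCs, Oct4 peaks with scores 51 and 94 lay just outside and inside Hoxb8 (gene ID 15416), at percentiles 1.40 and 18.8, and were also near Hoxb7 and Hoxb9. In the Hoxd cluster, Hoxd8 (gene ID 15437) had a day 6 peak of 1110 bp with a score of 187 (percentile 18.4) that began 116 bp after its start site. It was also within 10 kb of Hoxd9 and Hoxd3.

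Anterior genes, which pattern the hindbrain, neck and pharyngeal arches, carried several peaks of modest score. Hoxb4 (gene ID 15412, chr11:96318267-96321638), also known for its action in blood stem cells, was the only Hox gene with an Oct1 peak within 1 kb of its start in all 3 Oct1 lists. The ESC peak at chr11:96318091-96318590 (score 135, percentile 63.9) and the day 3 peak at chr11:96318001-96318620 (score 227, percentile 56.6) covered the outer end. The day 6 peak at chr11:96318691-96319310 (score 260, percentile 25.7) lay 71 bp beyond the day 3 peak and 101 bp beyond the ESC peak. These sites also lie inside the longest annotated form of Hoxb3, which had another ESC Oct1 peak at chr11:96311871-96312500 (score 173, percentile 74.1) with no counterpart later. Hoxb5 was near that ESC peak and had no other. The remaining ESC Oct1 peaks of the cluster lay in Gm53, in the wide gap between Hoxb13 and Hoxb9, 15370 and 10550 bp from Hoxb9 (scores 142 and 102).

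Hoxb1, which sets the identity of a hindbrain segment, had a day 6 peak 4247 bp beyond its inner end (score 491, percentile 48.2).

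Hoxa3, which acts in thymus and parathyroid formation, and Hoxa4 had 3 day 6 peaks between them. A peak of 1030 bp at chr6:52191271-52192300 (score 362, percentile 36.1) covered the outer end of Hoxa4 (gene ID 15401) and was the one near Hoxa5. The others had scores of 262 and 218 and lay in Hoxa3 (gene ID 15400) as annotated in its longest form, where LOC115490409 and Gm15050, both uncharacterised, overlap it at these respective sites. Hoxa3 had an Oct4 peak in ESCs (score 148, percentile 54.6), 3807 bp from the outer end of Hoxa5 and within 10 kb of Hoxa4, Hoxa5 and Hoxa6, and Hoxc4 had one too (score 88, percentile 16.6), which also lay in Gm30528 and near Hoxc5. Hoxb2, Hoxc11, Hoxd1 and Hoxd4 had no peak within 10 kb in any list.

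**Figure D3:**
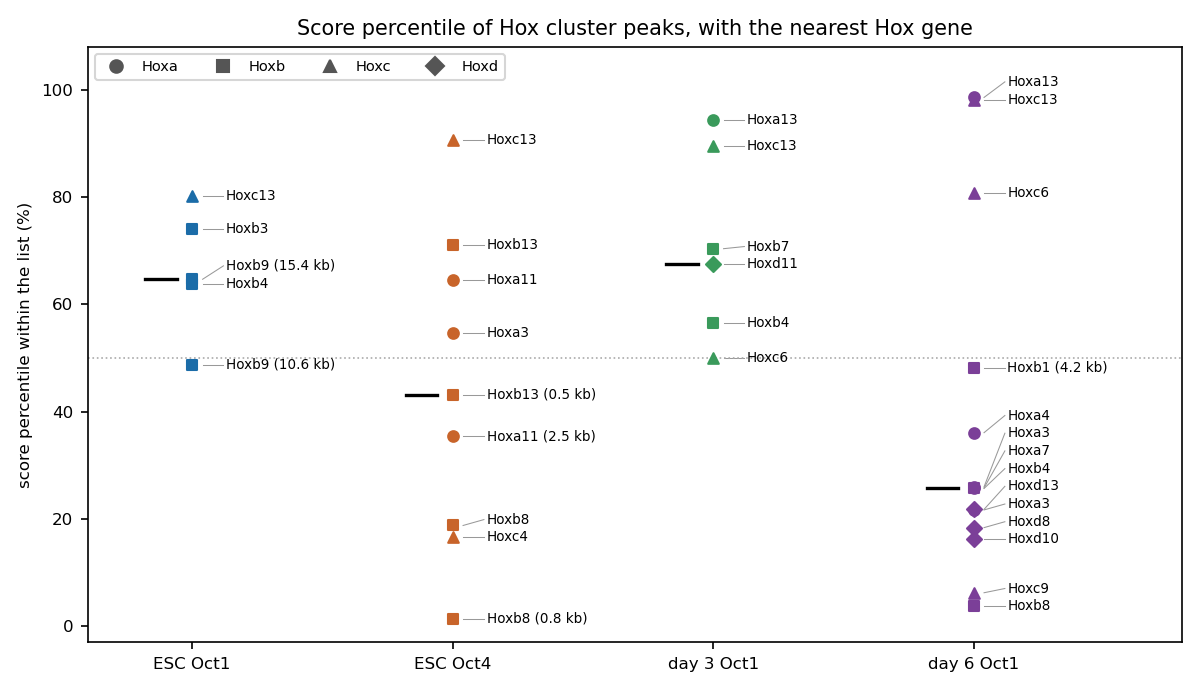
Score percentile (y axis, percent of the list with a lower score) of peaks in the Hox cluster windows, by list (x axis). Symbols give the cluster, labels the nearest Hox gene with its distance where the peak lies outside the gene, and black bars the medians over all peaks of the windows, at 64.7, 43.2, 67.5 and 25.8. At day 6 the peaks at Hoxa13, Hoxc13 and Hoxc6 lie above 80 and the other plotted peaks below 50.

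Of the 17 Hox genes with a peak within 10 kb at day 3, 17 had one at day 6 too, beside 83.6% of all protein-coding genes with a day 3 peak. Another 11 of the 28 genes at day 6 had a peak in no other Oct1 list (39.3%, beside 30.4% of all genes with a day 6 peak). An ESC Oct1 peak was lacking at 25 of the 28 (89.3%, beside 52.9%), and an ESC peak of either factor at 17 (60.7%, beside 39.1%). In the other direction, Hoxb5 and Hoxc12 were 2 of 5 genes with an Oct1 peak in ESCs and none at day 6 (40.0%, beside 44.5% of all genes). Hoxa10, Hoxa11, Hoxb13, Hoxc4 and Hoxc5 were 5 of 15 genes near an Oct4 peak and no Oct1 peak (33.3%, beside 13.1%). These counts follow shared peaks and the 10 kb window, and the same gene can carry different peaks in different lists.

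**Figure D4:**
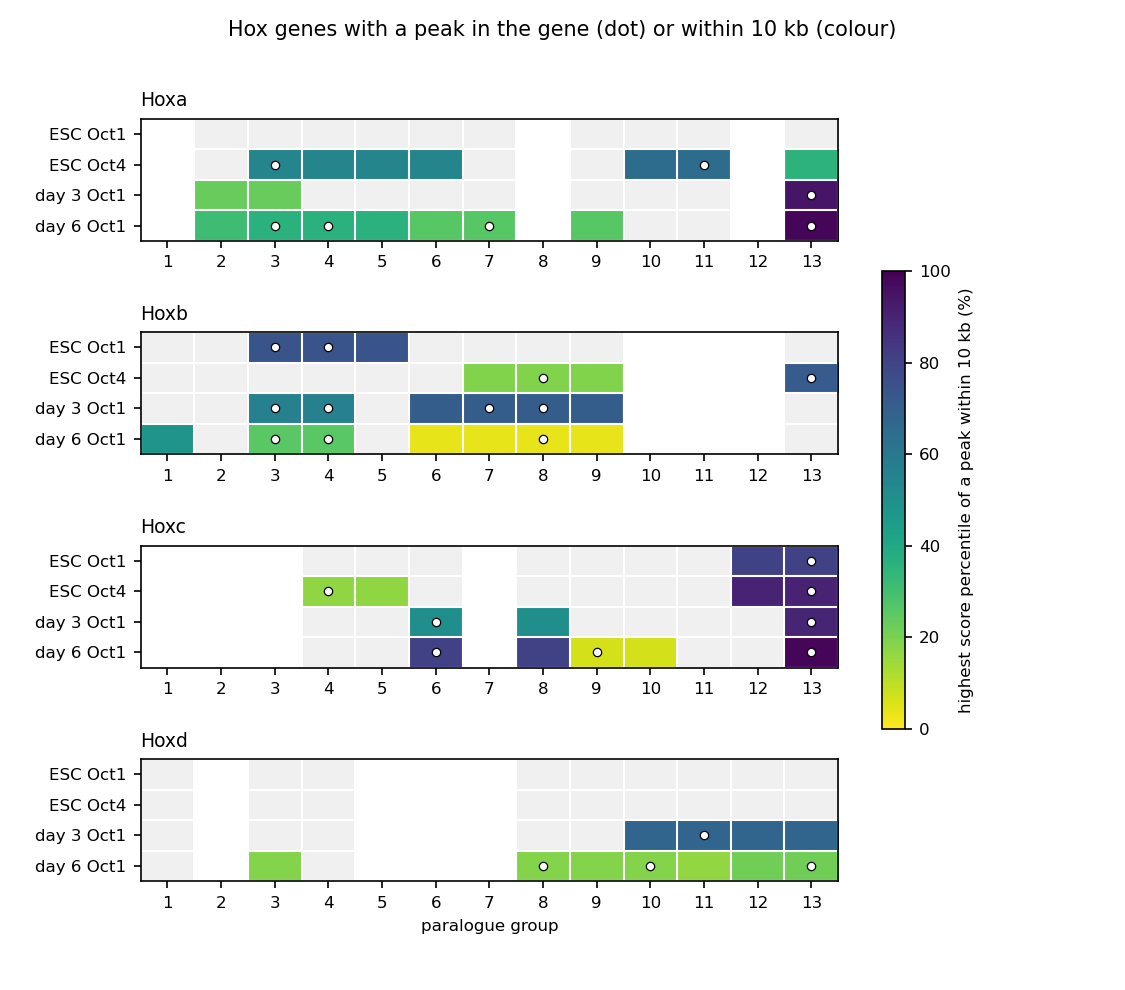
Hox genes by cluster and paralogue group (x axis) in each peak list (y axis). Colour gives the highest score percentile of a peak in the gene or within 10 kb, light grey means that no peak was listed, a dot marks a peak in the gene itself, and white means that no gene of that group is shown. Hoxc13 is coloured in all 4 lists, and the Hoxd genes are grey in both ESC lists.

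Peaks in no other list made up 3 of 5 ESC Oct1 peaks of the clusters, 8 of 9 ESC Oct4, 2 of 7 day 3 and 11 of 15 day 6 peaks, beside 36.0%, 52.4%, 16.8% and 52.5% of the whole lists. In ESCs, 1 of 5 Oct1 peaks overlapped an Oct4 peak by at least 1 bp (20.0%, 0.505 to 71.6), beside 59.1% of the whole ESC Oct1 list, and 1 of 9 Oct4 peaks overlapped an Oct1 peak (11.1%, 0.281 to 48.2), beside 46.0% of that list. This was the site inside Hoxc13. Both whole-list shares lie within the intervals, so a difference particular to the clusters was not detectable here either. Between ESCs and day 3, the site at Hoxb4 was the 1 shared peak, of 5 in ESCs (8.88% in the whole list) and of 7 at day 3 (32.3% in the whole list). None of the 5 ESC Oct1 peaks overlapped a day 6 peak (interval up to 52.2, beside 6.66%), and none of 15 day 6 peaks overlapped an ESC Oct1 peak (up to 21.8, beside 15.2%).

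Day 3 and day 6 shared 4 sites, those at Hoxa13, Hoxc6 and Hoxc13 among them. These were 4 of 7 day 3 peaks (57.1%, 18.4 to 90.1), beside 58.5% of the whole day 3 list, and 4 of 15 day 6 peaks (26.7%, 7.79 to 55.1), beside 36.6% of the whole day 6 list. None of the 7 day 3 peaks overlapped an ESC Oct4 peak (interval up to 41.0, beside 20.0% of the whole list), nor did any of the 15 day 6 peaks (up to 21.8, beside 12.9%). Both whole-list shares lie within these intervals, so a lack of overlap particular to the clusters was not detectable with so few peaks.

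Several of the later Oct1 peaks lay at the outer ends of Hox genes. Of 7 day 3 peaks, 4 covered the outer end of a Hox gene (Hoxa13, Hoxb4, Hoxb7 and Hoxc13) and 6 lay within 1 kb of one. Of 15 day 6 peaks, 4 covered an outer end (Hoxa4, Hoxa13, Hoxc13 and Hoxd13) and 9 lay within 1 kb. Of 9 Oct4 peaks, none covered an outer end and 3 lay within 1 kb, and of 5 ESC Oct1 peaks the 1 at Hoxb4 covered one. Counting either end of a Hox gene, 1 of 5 ESC Oct1, 5 of 9 ESC Oct4, 6 of 7 day 3 and 9 of 15 day 6 peaks lay within 1 kb, so on this count the Oct4 and day 6 shares were close. Over the whole lists, 11.4% of ESC Oct1, 10.3% of ESC Oct4, 55.3% of day 3 and 74.3% of day 6 peaks came within 1 kb of either end of a protein-coding gene. Nearness to a gene end was thus common in both later lists as a whole. The clusters hold 69.9 protein-coding genes per Mb against 8.10 over the genome, so peaks there have more gene ends nearby. No whole-list share was counted for outer ends alone, so nearness to them is not shown to be particular to Hox genes.

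Genes that act with or upstream of Hox genes were examined in the same way, as a list of 33 chosen with earlier results of these data known. ESC Oct1 and ESC Oct4 peaks were each listed near 13 of them (39.4%), day 3 peaks near 16 (48.5%) and day 6 peaks near 21 (63.6%), beside 35.2%, 40.2%, 24.6% and 41.5% of all genes in the 4 lists. With the higher-scoring 50% of each list, 9 of the 33 had an ESC Oct1 peak (beside 24.3% of all genes) and 10 an ESC Oct4 peak (beside 26.8%). A day 3 peak remained at 10 (beside 15.0%) and a day 6 peak at 10 (beside 25.0%). With every list shortened to 4867 peaks, 8 of the 33 had an ESC Oct1 peak (beside 16.3% of all genes). An ESC Oct4 peak remained at 5 (beside 14.7%) and a day 6 peak at 13 (beside 30.2%). Of the TALE homeodomain cofactors, which bind DNA together with Hox proteins, 6 of 9 had a peak in each ESC list and at day 3, and 9 of 9 at day 6. All 4 Polycomb and trithorax genes of the list (Eed, Ezh2, Suz12 and Kmt2a) had a day 6 peak, 3 a day 3 peak, none an ESC Oct1 peak and 1 an ESC Oct4 peak. Of 3 Cdx genes, which activate Hox genes in the tail bud, Cdx1 alone had ESC peaks, of Oct1 (highest score 221, percentile 82.1) and of Oct4. Cdx2 alone had a day 3 peak (score 455), and no Cdx gene had a day 6 peak. Of 7 retinoic acid genes, 3 had a peak in each ESC list, 1 at day 3 and 3 at day 6. Of 6 related homeobox genes, 2 had an ESC Oct1, 1 an ESC Oct4, 3 a day 3 and 2 a day 6 peak, and of 4 other upstream genes 1, 1, 2 and 3. Of the 21 genes with a day 6 peak, 11 had their highest one below percentile 50, among them 5 of the 9 TALE genes, Eed (percentile 34.0) and Ezh2 (percentile 45.3) but none of the retinoic acid genes.

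The highest Oct1 scores in this list belonged to Pknox1, a TALE cofactor, with 10294 in ESCs (rank 38), 7587 at day 3 (rank 30) and 4481 at day 6 (rank 39). Its Oct4 peak had a score of 136 (percentile 44.7). Pbx3, a partner of many Hox proteins, stood at percentile 98.5 for Oct1 (score 1258) and 99.8 for Oct4 (score 1053) in ESCs, at 62.8 at day 3 (score 261) and at 32.7 at day 6 (score 330). Egr2 (Krox20), which activates Hox genes in the hindbrain, had Oct1 scores of 558, 778 and 213 in ESCs, at day 3 and at day 6, at percentiles 95.8, 93.1 and 21.1.

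Kmt2a, the trithorax methyltransferase that maintains Hox expression, had no ESC Oct1 peak, a day 3 peak with a score of 1668 (percentile 97.3) and a day 6 peak with a score of 2333 (percentile 97.5). Gdf11, a signal for the switch to posterior Hox genes, had a day 3 score of 335 (percentile 73.1) and a day 6 score of 1286 (percentile 87.5) and no ESC peak of either factor. Among Oct4 peaks, the list was led, after Pbx3, by Cdx1 (score 396, percentile 97.2) and the retinoid receptor genes Rxra (score 331, percentile 94.7) and Rara (score 275, percentile 90.5). Meis2, Pknox2 and Rara were further genes of the list with a peak in all 3 Oct1 lists. Several of these genes are long, and a long gene has more room for a peak.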

How the data were processed

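ChIP-seq peaks of 4 of the 7 samples were used, with 1 library per group; the 3 inputs were not used here. Reads were aligned with Novoalign 3.8.2 to mm10, per the submitters' processing notes, and the peak caller, threshold and control are not given in the sources used here. Each deposited list gives chromosome, start, end, name and a whole-number score per peak, set by the authors without a unit, so scores of different lists are not on a common scale, and peaks are placed by rank and percentile within a list. Genes came from RefSeq on GRCm38.p6 (same assembly as mm10), and coordinates are 1-based. The gene table gives neither strand nor exons, so whether a peak is exonic or intronic is not known.

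A gene was counted when at least 1 bp of a peak lay in it or within 10 kb. Where a peak fell in several Hox genes, the one with the nearer end was named. All 39 Hox genes are counted, and those with a peak within 10 kb in any list are named, except that some items are not reported here in the text or drawn in the plots; of the cofactor and regulator list, the 4 highest percentiles per list and genes in all 3 Oct1 lists are named. Genes, lists and windows were chosen with earlier results of these data known, and the search for 7 of 8 octamer letters was added later still. No test was made. The alternatives were gene windows, cluster flanks, peak midpoints, overlap rules, gene length range and score filters. Counting functions were tested on simulated data (scipy 1.17.1, pandas 2.3.3, numpy 2.4.6 and matplotlib 3.10.9 under Python 3.11.15). The labels' protocol names 100 M read pairs for all samples alike; the lists hold no reads, so the depth reached by each was not checked.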

Additional observations from a re-analysis of the deposited data

How the results depend on the processing

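No paired analysis was possible because each group had 1 library. For 22 results, 94 alternative values were computed, and 59 stayed within 1.5 times the value reported (shares: within their interval). The cause of the other changes was not tested, except that narrower windows and shorter lists lower counts by construction. Within the gene alone, 3 (ESC Oct1), 6 (ESC Oct4), 9 (day 3) and 14 (day 6) Hox genes had a peak, and within 1 kb of the start 1, 1, 7 and 10. Within 50 kb it was 15, 29 and 37 for the first 3 lists, and 20 (ESC Oct1) and 23 (ESC Oct4) cofactor and regulator genes. With the higher-scoring 50% of each list (ties kept), 9 Hox genes (Oct4) and 4 (day 6) had a peak, 4 Oct4 and 3 day 6 cluster peaks remained, and 10 regulator genes had a peak at day 3 and 10 at day 6. With every list shortened to 4867 peaks, 2 Hox genes (Oct4) and 5 (day 6) had a peak, the clusters held 2 ESC Oct1, 1 Oct4 and 4 day 6 peaks, 8 (ESC Oct1), 5 (Oct4) and 13 (day 6) regulator genes had a peak, and 0 ESC Oct1 cluster peaks overlapped a day 3 peak. With flanks of 50 kb, the clusters held 14 Oct4 peaks, 2 ESC Oct1 peaks overlapped 2 Oct4 peaks, and 1 ESC Oct1 peak overlapped a day 6 peak. Counting peaks within 1 kb as shared likewise gave 1 for ESC Oct1 in day 6. Among genes in the length range of Hox genes, 25.4% had a day 3 and 44.2% a day 6 peak within 10 kb.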

Other observations

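Widening the flanks from 10 kb to 50 kb raised the ESC Oct4 peaks from 9 to 14. The other counts rose from 5 to 6 (ESC Oct1), from 7 to 8 (day 3) and from 15 to 16 (day 6). On the Hoxb13 side of the Hoxb cluster, a site in Ttll6, 47896 bp from Hoxb13, carried peaks of ESC Oct1 (chr11:96145281-96146420, score 185, percentile 76.6), ESC Oct4 (score 261, percentile 88.7) and day 6 Oct1 (score 90, percentile 5.56), and none at day 3. Further Oct4 peaks lay 23066 bp from Hoxb13 (score 127, percentile 41.3) and 45437 bp from Hoxb1 (score 180, percentile 68.8). An Oct4 peak with a score of 196 (percentile 75.4) lay just outside the 10 kb limit, 10611 bp from Hoxc13. Evx1os, antisense to the homeobox gene Evx1 beside Hoxa13, had an Oct4 peak (score 149, percentile 54.7). Near Evx2, which lies beside Hoxd13, a day 3 Oct1 peak 4889 bp from the gene had a score of 53 (percentile 4.17). The Hoxd windows held no peak of either factor in ESCs, with 10 kb or with 50 kb flanks.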
